A study of Mus musculus with 4 samples.

Results

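Exon-exon junctions that span 50000 nt or more of the mouse genome, and that are listed as known and carried at least 10 reads over the 4 libraries, were taken as the long known junctions. They numbered 684 of 186874 known junctions, or of 93895 known junctions with at least 10 reads, and lay in 508 genes. Each is written by the last base of the exon before the intron and the first base of the exon after it, in build mm9, and its span is the end minus the start. The junctions were chosen by length and by their read total over all libraries, so their length and level are described without a test, while the difference between genotypes played no part in the choice.

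An intron is removed from a pre-mRNA when the splicing machinery joins its 5′ splice site, at the end of one exon, to the 3′ splice site before the next exon. In a long intron these sites are far apart and are transcribed at different times, and the first intron of a gene is often its longest. hnRNP L is an abundant nuclear RNA-binding protein that prefers CA-rich RNA and can promote or repress the use of nearby splice sites, and in T cells it is known for its control of the alternative exons of Ptprc, the CD45 gene.

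RNA came from total thymocytes, the developing T cells of the thymus, of 2 wild-type mice and 2 hnRNP L KO mice, with 1 library per mouse. Wild-type and KO mice are labelled alike as of mixed background: C57BL/6 and CD45.1 strains, LckCre transgenic, and carrying the reporter allele Gt(ROSA)26Sortm4(ACTB-tdTomato,-EGFP)Luo. Lck drives expression in T-lineage cells from early thymocytes on, so a Cre under its promoter acts mainly in those cells. The sources used here do not give which mice carried Cre, the deleted part of Hnrnpl or the age of the mice. Ribosomal RNA was depleted and the libraries were read as single short fragments on SOLiD slides.

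Mapped reads ranged from 69061265 in KO replicate 1 to 122619310 in wild-type replicate 2, and reads across known junctions from 3263881 to 6075495 in the same libraries. The 684 long junctions took 0.450% and 0.454% of the known-junction reads in wild type and 0.470% and 0.441% in KO. Hnrnpl itself was at 854 and 813 CPM (counts per 1000000 reads of the library, TMM-scaled) in wild type and at 467 and 208 in KO. All 10 thymocyte markers were found, with summed levels of 14565 to 17287 CPM (marker sums are given without TMM scaling). KO replicate 1 stood apart from the other libraries: its Ddx3y (Y-linked) was at 149 CPM against at most 0.437 CPM, its Xist at 8.04 CPM against at least 1486 CPM, and its 5 erythroid markers summed to 287 CPM against 64.8 to 81.1 CPM. Summed B cell markers ran from 39.0 to 46.6 CPM, myeloid markers from 164 to 202 CPM and stromal markers from 206 to 285 CPM, with no marker found at 0. The part of these differences in the results below was not tested. In such bulk RNA, fewer cells of a type and less RNA per cell cannot be told apart.

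The spliced sequences show what a long junction joins. For 668 of the 684 junctions, or 97.7%, an intron of the same length was found in the same gene of GENCODE M21 (build GRCm38), and 15 nt on each side were read from its transcripts. The junctions below are some of those named later for the smallest unadjusted p or the lowest levels, and none of them was called. They are written 5′ to 3′, with the last 3 bases of the exon before and the first base of the exon after in capitals.
Eif2ak1, chr5:144578877-144632732, plus strand: accccaagtatgATGAgtccgatgtccccg
Galnt7, chr8:60063024-60131650, minus strand: ctgagcaggatgAGGGaagacagagatgtc
Sfmbt1, chr14:31529061-31579149, plus strand: gaaaactcccgtCAGAtccgtggatgccac
Hivep2, chr10:13686503-13786389, plus strand: tcccttctcggcTCGGtgaagtctgtgagt
Tspan5, chr3:138405624-138531310, plus strand: aatgtcatatttTGGTttttgggaataacg
Gpatch2, chr1:189057705-189128209, plus strand: gctccaccttcaATGCtgtctgctcctggc
Tmem164, chrX:139117492-139186583, plus strand: gtcaccatgatgCATAtcttcctcctggcc
Sh3kbp1, chrX:156065623-156121476, plus strand: tcttggcgccaaTGGTggaggccatagtgg
Sh3kbp1, chrX:156121633-156201944, plus strand: gacaactttgtaAGAGaaataaagaaagat

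The exon before a long intron ended in G in 81.0% of the 668 matched junctions, against 80.0% of the 5574 matched other known junctions of the same genes. It ended in AG in 53.0% against 58.3%, and the exon after began with G in 45.8% against 46.4%. The letters CACA, searched on the transcript strand in the 30 nt of spliced sequence, were present in 84 long junctions (12.6%) and in 751 of the others (13.5%). Matches in exons say nothing of the introns, whose sequence was not used here.

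Long known junctions were mostly joins within coding sequence, and a large share of them were the first of their gene. Among the known junctions of a gene with at least 10 reads, the long one was the first in 277 cases (40.5%), internal in 342 (50.0%), the last in 43 (6.29%) and the only one in 22 (3.22%). Of the 5621 other known junctions of these genes, 4.09% were first, 87.9% internal and 8.02% last, with a median span of 2507 nt and a median of 69 reads. Where the long junction is first, few others of its gene can be, so this contrast and that of the 5′ UTR below are partly fixed. Being first was not particular to 50000 nt or more. In genes with at least 4 other junctions and a median of at least 40 reads, 30000 to under 50000 nt held 249 first, 296 internal and 6 last. The class of 50000 to under 100000 nt held 136, 183 and 15. The exon before ended in the 5′ UTR in 113 of the 668 matched long junctions (16.9%) against 2.46% of the others, in coding sequence in 548 (82.0%) against 96.7%, in the 3′ UTR in 1 and in a noncoding transcript in 6. By current RefSeq type, 674 of the 684 were in protein-coding genes and 3 in lncRNA genes, and 7 had no current match.

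The median span was 69785 nt, with quartiles of 57554 and 92290 nt. In all, 555 spanned less than 100000 nt, 117 spanned 100000 to under 200000 nt, and 12 spanned more. Reads over the 4 libraries had a median of 47 and quartiles of 20 and 116. At least 100 reads were found for 199 junctions, at least 500 for 33 and at least 1000 for 9, and 633 were read in every library. Most genes held a single long junction (391), 77 held 2, 25 held 3, 11 held 4, and Arhgap15, Cdkal1, Exoc4 and Foxp1 held 5 each. Chromosome 2 had the most, with 64.

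**Figure D1:**
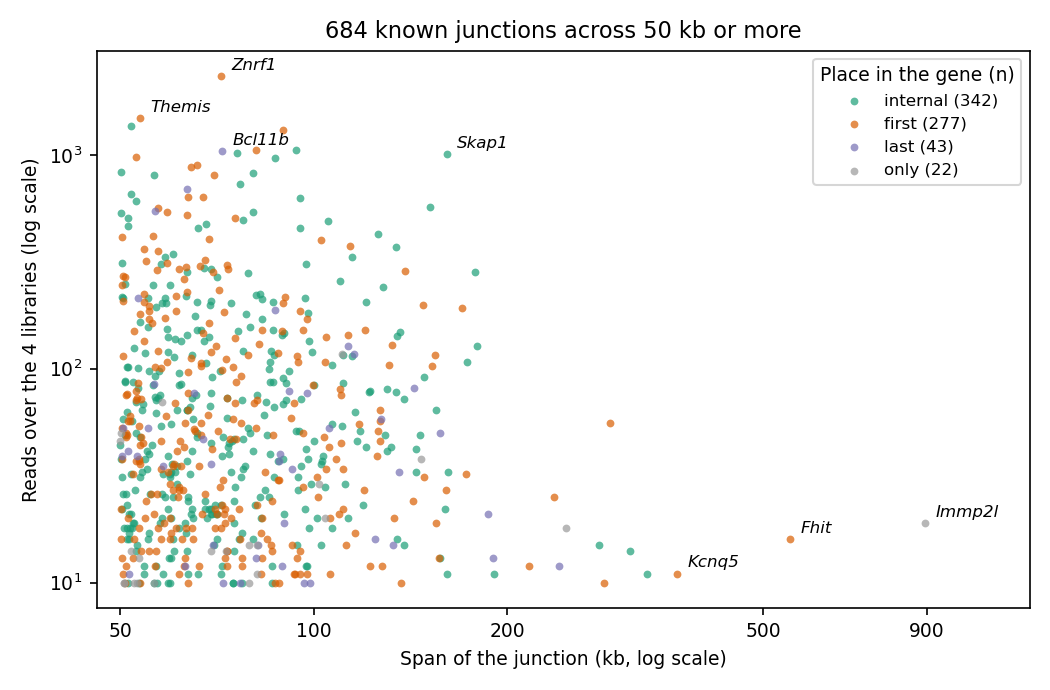
Each point is 1 of the 684 long known junctions, with its span in kb on the x axis and its reads over the 4 libraries on the y axis (both log scales), coloured by its place among the known junctions of its gene. The best-read junctions, such as those of Znrf1, Themis and Skap1, lay under 200 kb, and the 12 junctions over 200 kb ended with that of Immp2l at 892221 nt.

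The deposited tables listed 3100 known junctions of this length in all. Of these 1829 had no read in any library and 587 had 1 to 9 reads, which left the 684. Of the 2416 with fewer than 10 reads, 1965 were in genes in which no known junction reached 10 reads. Another 251 were in genes with at least 4 known junctions that did, and 91 of those had no read. A count of 0 over the libraries allows up to 3 reads, so such junctions were not detected at this depth. Just inside the length threshold was the junction of Gvin1_dup1 at 50008 nt, a near-identical gene copy whose reads are uncertain, with 12 and 15 reads in wild type and 7 and 12 in KO. Just outside it was a junction of AI480653 at 49980 nt, with 10, 13, 3 and 5 reads in the same order. Just inside the read threshold was the first junction of 2610528E23Rik (current symbol Cmss1), 283123 nt, with 6, 0, 1 and 3 reads, and just outside was a second Immp2l junction of 251224 nt with 3, 4, 2 and 0.

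Next, the reads of each long junction were set against its own gene, as a percentage of the median reads of the gene's other known junctions with at least 10 reads. All junctions of an mRNA are passed by the same transcripts, so a junction used in every transcript would stand near 100%. The median long junction stood at 89.2%, with quartiles of 51.4% and 153% over 663 junctions with a comparator. The medians were 90.6% and 85.0% in the wild-type libraries and 95.2% and 90.9% in the KO libraries, over 659 junctions with a level in every library. Both the 10-read minimum and the comparator set the value: with at least 30 reads the median was 121%.

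Over the libraries together, first junctions had lower medians than internal ones in each of the 6 span classes, by least at 50000 to under 100000 nt. In that class the order was the other way in wild-type replicate 1 (105.3% first, 92.9% internal) and KO replicate 2 (89.6% and 86.7%), and wild-type replicate 1 also turned it at 30000 to under 50000 nt (89.3% and 80.9%). Among genes with at least 4 other junctions and a median of at least 40 reads, first junctions of 50000 to under 100000 nt had a median of 87.7% (136 junctions) and those of 100000 nt or more 75.5% (28 junctions). First junctions under 1000 nt stood at 58.1% (1287) and those of 1000 to under 10000 nt at 69.5% (2679). Internal junctions were at 89.9% for 50000 to under 100000 nt (183) and 104% for 100000 nt or more (39), against 100.3% under 1000 nt (25033). These are descriptions over junctions, which share genes and libraries. Of the 408 long junctions in such genes, 226 (55.4%) lay between 50% and 200%, 45 (11.0%) under 25% and 68 (16.7%) over 200%. Of all 65753 other known junctions in such genes the shares were 59.3%, 7.11% and 18.2%, and 25 of the 45 low long junctions were first junctions. These shares mix places in the gene, as more of the long junctions were first. Among first junctions, 16.2% of 50000 to under 100000 nt and 10.7% of 100000 nt or more lay under 25%. The shorter classes ran from 14.1% to 20.98%. Among internal junctions the long classes had 8.74% and 5.13%, against 6.20% to 8.78%. Within either place the long classes thus lay within or below the range of the shorter ones.

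**Figure D2:**
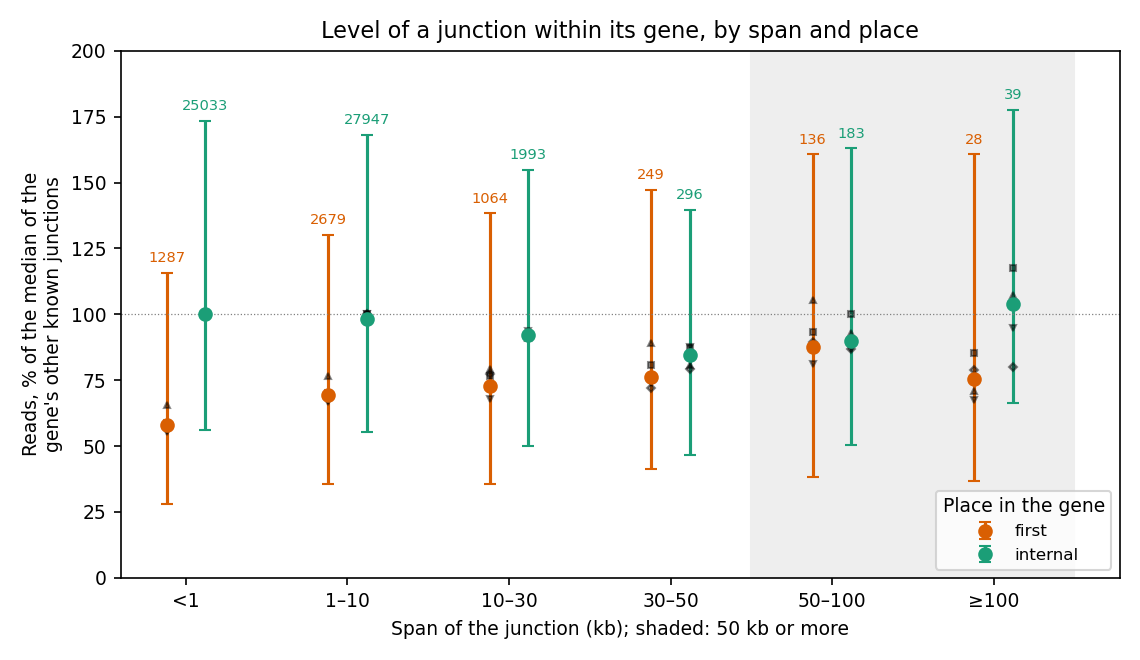
The y axis gives the level of a junction as a percentage of the median of the gene's other known junctions, and the x axis the span class in kb; coloured points are medians for first and internal junctions, bars their quartiles and numbers their n, and small black triangles, squares and diamonds are the medians of wild-type replicates 1 (up) and 2 (down) and KO replicates 1 (square) and 2 (diamond). First junctions under 1 kb had a median of 58.1%, first junctions of 50 to 100 kb 87.7% and internal junctions of 50 to 100 kb 89.9%, with wide and overlapping quartiles in every class.

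Several of the best-read long junctions lay in genes known for T cell development. The first junction of Znrf1, a gene for a ubiquitin ligase, carried 741 and 877 reads in wild type and 344 and 372 in KO. The first junction of Themis, whose product acts in T cell receptor signalling during thymocyte selection, carried 420, 587, 254 and 227. An internal junction of Arpp21, which encodes a cAMP-regulated phosphoprotein, had 313, 512, 270 and 271. The libraries differ in depth, and as RPM (reads per 1000000 known-junction reads) the Arpp21 groups were at 75.4 ± 12.5 and 80.4 ± 3.34 (SD, n = 2 each).

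Pip4k2a, for a phosphoinositide kinase, had 389, 438, 296 and 187 reads on its first junction. Cux1, for a homeodomain factor, had 206, 406, 218 and 220, also on its first. Tcf12, which encodes the E protein HEB needed in early T cell development, had 169, 364, 213 and 304 on the join of exons 3 and 4. Bcl11b, a zinc finger factor of T-lineage commitment, had 174, 478, 165 and 220 on its last, and Chchd3, for a protein of mitochondrial cristae, had 242, 419, 171 and 189. None of these 8 was called for a change in relative usage between genotypes, with log2 changes of -0.12 (Themis) to 0.42 (Tcf12, SE 0.29, unadjusted p = 0.151, the smallest of the 8). Tcf12 gave 47.9 ± 17.0 RPM in wild type and 76.4 ± 15.7 in KO (SD, n = 2 each), and on that scale both KOs lay above both wild types. Both KOs lay below both wild types for Znrf1 (150.9 ± 9.31 RPM in wild type, 106.2 ± 1.18 in KO). The same held for Themis (92.9 ± 5.19 and 71.6 ± 8.83 RPM).

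Of the long junctions in genes with at least 4 other junctions and a median of at least 40 reads, 6 stood highest above the rest of their gene. The Znrf1 junction stood at 1406% of its gene's median, that of Tbc1d22a (a Rab GTPase-activating protein) at 1017%, that of Srp54a_dup2 at 827%, that of Foxp1 at 734%, that of Fam172a at 663% and that of Ppp3ca, the catalytic subunit of calcineurin, at 578%. These levels depend on the comparator, and the Znrf1 median is over 5 other junctions, thinly read ones among them. Over the 4 libraries the Znrf1 junction carried 2334 reads and the next one 1448. The Srp54a_dup2 junction had 732 beside neighbours of 462 and 400, and that of Tbc1d22a had 610 beside 60 and 121. Srp54a_dup2 is 1 of several near-identical copies, so its reads are uncertain. Foxp1, for a forkhead factor of lymphocyte quiescence, shows the range within a gene. Its join at chr6:99025943-99112833 carried 238, 319, 233 and 172 reads, while the next long join before it, at chr6:99113023-99210339, carried 2, 2, 4 and 4 and stood at 8.30%. A further Foxp1 join ended 96 nt short of the first, at chr6:99026039-99112833, and carried 18, 18, 10 and 20 reads. In every library the best-read Foxp1 join carried far more reads than the other long ones.

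Most of the lowest levels were those of first junctions. The first junction of Cd247, which encodes the zeta chain of the T cell receptor complex, carried 8, 11, 11 and 5 reads, or 3.26% of the gene's median. The very next junction of Cd247 carried 1436, 1814, 851 and 594. All 4 libraries showed this gap, with Cd247 levels of 2.14% and 2.86% in wild type and 6.61% and 3.38% in KO, and the change in usage was not called (log2 0.97, SE 0.75, unadjusted p = 0.201).

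Sh3kbp1, for the adaptor CIN85, had both of its first annotated joins low. The first carried 9, 7, 8 and 2 reads (5.53%) and the second 7, 3, 3 and 3 (3.40%). The join at chrX:156146675-156201944, which enters the same exon from a nearer one, carried 59, 54, 57 and 45. The reads of Sh3kbp1 thus entered that exon mostly from the nearer exon in every library. A second first junction of Znrf1, at chr8:114062366-114133193, had 3, 12, 4 and 2 reads (3.35%) beside the well-read one above. Ppp2r5c, for a regulatory subunit of protein phosphatase 2A, had 0, 3, 4 and 3 (3.02%), and Prkacb, for a catalytic subunit of protein kinase A, had 7, 7, 2 and 8 (6.61%). No group of libraries stood apart in Sh3kbp1, Znrf1 or Prkacb. The Ppp2r5c junction shared its exon after with a shorter one, and its share was 0% and 1.42% in wild type. In KO the share was 3.33% and 1.99%, so both KOs lay above, on no more than 4 reads in a library.

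The 5 longest were thinly read. Immp2l, for a mitochondrial inner membrane peptidase, had 5, 11, 0 and 3 reads across 892221 nt, and no other junction of the gene reached 10 reads. Fhit, a gene at a common fragile site, had 7, 7, 0 and 2 across 551320 nt. Kcnq5, for a potassium channel, had 2, 2, 1 and 6 across 367567 nt. None of the 5 had more than 11 reads in a library. Rad51l1 (current symbol Rad51b), of homologous recombination, had 8, 0, 2 and 1 across 330420 nt, and Smyd3, for a lysine methyltransferase, had 9, 1, 0 and 4 across 310881 nt. At such counts a library at 0 allows up to 3 reads.

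Lists of genes, chosen with earlier results of these data known, were then searched for long junctions. Of 50 T cell transcription and chromatin regulators, 23 held 37 long junctions with 9820 reads, at a median level of 97.1% of their genes. Of 49 genes of T cell receptor signalling, kinases and lipid signalling, 24 held 31 with 7139 reads and a median of 82.1%. Skap1, which links the receptor to integrins, led these after Themis, with 356, 380, 149 and 124 reads across 161123 nt and a level of 382%. Itpr2, a calcium release channel, had 212, 331, 136 and 152, and the second Themis junction, at chr10:28502548-28583106, had 215, 301, 174 and 135 and stood at 65.6% where the first stood at 145%.

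Of 38 genes of the cytoskeleton, adhesion and migration, 15 held 26 long junctions with 4288 reads and a median of 95.3%. Arhgap15, a Rac GTPase-activating protein, had 230, 214, 122 and 129 reads on its last junction and 113, 159, 71 and 120 on an internal one. Elmo1 (154, 233, 113 and 157) and Dock2 (93, 186, 57 and 91), partners in Rac activation, were next. Of 39 RNA-binding proteins and splicing regulators, 10 held 13 long junctions with 2112 reads and a median of 102%. Celf2 had 159, 182, 127 and 94 reads on its first. Msi2 had 3 long junctions in a row with 54, 58, 45 and 35, then 52, 117, 45 and 43, then 146, 153, 69 and 88. They are given in 5′ to 3′ order, and the last of them joins exons 7 and 8 of 14. Over the libraries together their levels were 94.6%, 136% and 241% of the Msi2 median. From the first of them to the next, reads did not rise in wild-type replicate 1 or KO replicate 1. The lists were chosen with earlier results known, and nothing particular to a list is drawn from these counts.

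Whether hnRNP L loss changed the use of long junctions was then tested, as the change of each junction relative to the other junctions of its gene (edgeR, Benjamini-Hochberg adjusted over 95139 junctions in 9475 genes, threshold 0.05). None of the 663 long junctions tested was called, where 0.0042% of all tested junctions (4) were. The smallest adjusted p among the long junctions was 1.00 in edgeR, and limma-voom called 0 as well. The remaining 21 had no other junction to be compared with. At an unadjusted p under 0.05 there were 22 long junctions, 14 higher and 8 lower in KO, against a background of 2.55% of all tested junctions (1.31% higher and 1.24% lower).

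The median log2 change of the long junctions was -0.02, beside 0.0033 for all tested junctions, with 319 above 0 and 344 below. Their 5th and 95th percentiles were -1.21 and 1.20, beside -0.99 and 0.96 for all. By place, the median was 0.02 for first junctions (277), -0.04 for internal (342) and -0.21 for last (43). By span, it was -0.03 under 100000 nt (539) and -0.01 from 100000 nt on (124). The standard error of a single long junction had a median of 0.62 on the log2 scale, and 0.37 for those with at least 100 reads. A call after adjustment needs a change well beyond the standard error, and Bre, at a log2 change of 3.41, was not called. The lack of calls therefore does not exclude changes above these sizes. As levels within the gene, both KOs lay above both wild types in 109 of 659 long junctions and below in 114, where the background over all known junctions was 15.2% above and 16.5% below. With 2 mice a group an exact permutation test of a single value cannot go below 0.33.

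**Figure D3:**
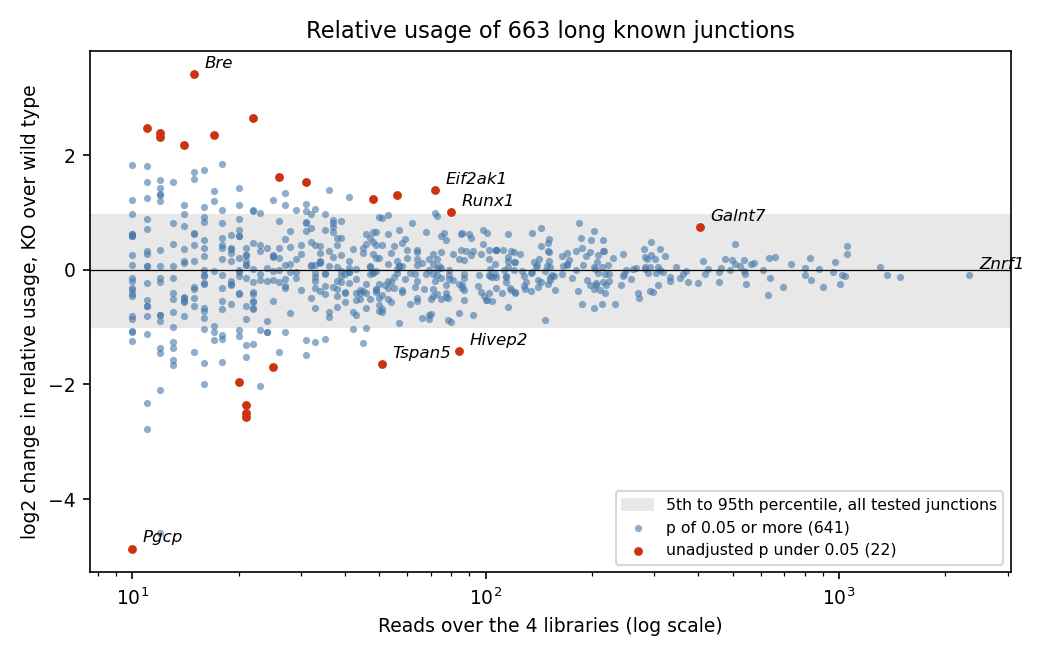
Each point is 1 of the 663 long junctions tested, with its reads over the 4 libraries on the x axis (log scale) and its log2 change in relative usage, KO over wild type, on the y axis; red marks an unadjusted p under 0.05 (22 junctions) and the grey band the 5th to 95th percentile of all tested junctions. The scatter narrows with reads and is centred near 0; the fitted change of Pgcp, at 0 reads in both KOs, depends on the prior count.

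The 4 lists followed the same course, and no long junction of them was called. Of the T cell transcription regulators 35 were tested, with a median log2 change of 0.09 and 1 at an unadjusted p under 0.05. That was a Runx1 junction, chr16:92695982-92825834, in the gene of this core-binding factor of T cell development, with 13 and 18 reads in wild type and 30 and 19 in KO (log2 1.01, SE 0.49, unadjusted p = 0.0444). Runx1 was named after its values were seen, and its groups do not overlap in RPM, at 2.86 ± 0.141 and 7.33 ± 2.63 (SD, n = 2 each). Of the signalling genes 31 were tested (median -0.06, 2 higher), of the cytoskeletal genes 25 (median 0.04, 1 higher) and of the RNA-binding proteins 12 (median -0.04, none at that p in edgeR).

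Among the 6 long junctions with the smallest p that were higher in KO, Eif2ak1 and Galnt7 had the most reads. The first junction of Eif2ak1, the heme-regulated kinase of translation initiation, carried 7 and 19 reads in wild type and 20 and 26 in KO, although the KO libraries were shallower. Its level within the gene was 23.3% and 36.5% in wild type and 95.2% and 96.3% in KO. The groups do not overlap, with a log2 change of 1.39 (SE 0.51, unadjusted p = 0.00845, adjusted p = 1.00 in edgeR). The Eif2ak1 gene itself was at a log2 change of 0.13 (SE 0.12). Erythroid markers were raised in KO replicate 1, and their part in the Eif2ak1 value was not tested.

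Galnt7, for an enzyme of O-linked glycosylation, had 54, 121, 141 and 88 reads on its first junction. This was 15.7 ± 5.97 RPM in wild type and 34.3 ± 12.6 in KO (SD, n = 2 each; log2 0.75, SE 0.32, unadjusted p = 0.0206). KO replicate 1 was highest, and without it the log2 change was 0.34 (unadjusted p = 0.404). The next Galnt7 junction, chr8:60031407-60062564, carried 20, 37, 8 and 28, with KO replicate 1 lowest.

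Sfmbt1, for a chromatin protein with MBT repeats, had 2, 2, 5 and 13 reads on its first junction, which joins 2 exons of the 5′ region (log2 2.64, SE 0.97, unadjusted p = 0.00771). Bre (current symbol Babam2), of the BRCA1-A complex, had 0, 2, 10 and 3 on the join of exons 8 and 9 (log2 3.41, SE 1.15, unadjusted p = 0.00433). Bre rests largely on KO replicate 1, without which the log2 change was 2.12 (unadjusted p = 0.158), and without wild-type replicate 2 the only wild-type library is at 0. Without KO replicate 2 the Sfmbt1 change was 2.01 (unadjusted p = 0.109). Camk1d, for a calcium/calmodulin-dependent kinase, had 5, 8, 8 and 10 (1.19 ± 0.180 and 2.66 ± 0.302 RPM), and Nmnat3, for an enzyme of NAD synthesis, had 4, 5, 8 and 9 (0.837 ± 0.0193 and 2.52 ± 0.0985 RPM; SD, n = 2 each). In Camk1d and Nmnat3 both KOs lay above both wild types, with log2 changes of 1.53 (SE 0.71) and 1.63 (SE 0.75).

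Among the 6 that were lower, Hivep2 had the most reads. Hivep2 encodes a zinc finger transcription factor, and its first intron lies in the 5′ UTR. The junction carried 26 and 45 reads in wild type and 6 and 7 in KO, or 54.2%, 65.2%, 13.6% and 28.0% of the gene's median. The groups do not overlap (log2 -1.42, SE 0.58, unadjusted p = 0.0186, adjusted p = 1.00 in edgeR). The next Hivep2 junction carried 51, 118, 44 and 34 reads, and the gene itself was at a log2 change of -0.44 (SE 0.19).

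Tspan5, for a tetraspanin, had 24, 20, 2 and 5 reads on its first junction (log2 -1.64, SE 0.72, unadjusted p = 0.0273). Gpatch2, for a G-patch protein, had 4, 15, 1 and 1 on the join of exons 5 and 6 (log2 -2.57, SE 1.05, unadjusted p = 0.0174). Both KOs were below both wild types in Tspan5 and in Gpatch2. Without wild-type replicate 2 the Gpatch2 change was -1.60 (unadjusted p = 0.242). Baz2b, for a bromodomain protein, had 7, 11, 3 and 0 (log2 -1.34 without KO replicate 2), and Tmem164, for a membrane protein, had 12, 7, 2 and 0. Pgcp (current symbol Cpq), for a secreted carboxypeptidase, had 5, 5, 0 and 0. Against the limit of 3 reads over both KOs, the Pgcp rate of 0.928 RPM in wild type was 2.08-fold higher. This ratio allows for counting error in KO only and has no more than 10 wild-type reads behind it, so it is not a lower limit. Each of the 12 junctions with the smallest p came to an unadjusted p of 0.05 or more when some 1 library was left out.

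**Figure D4:**
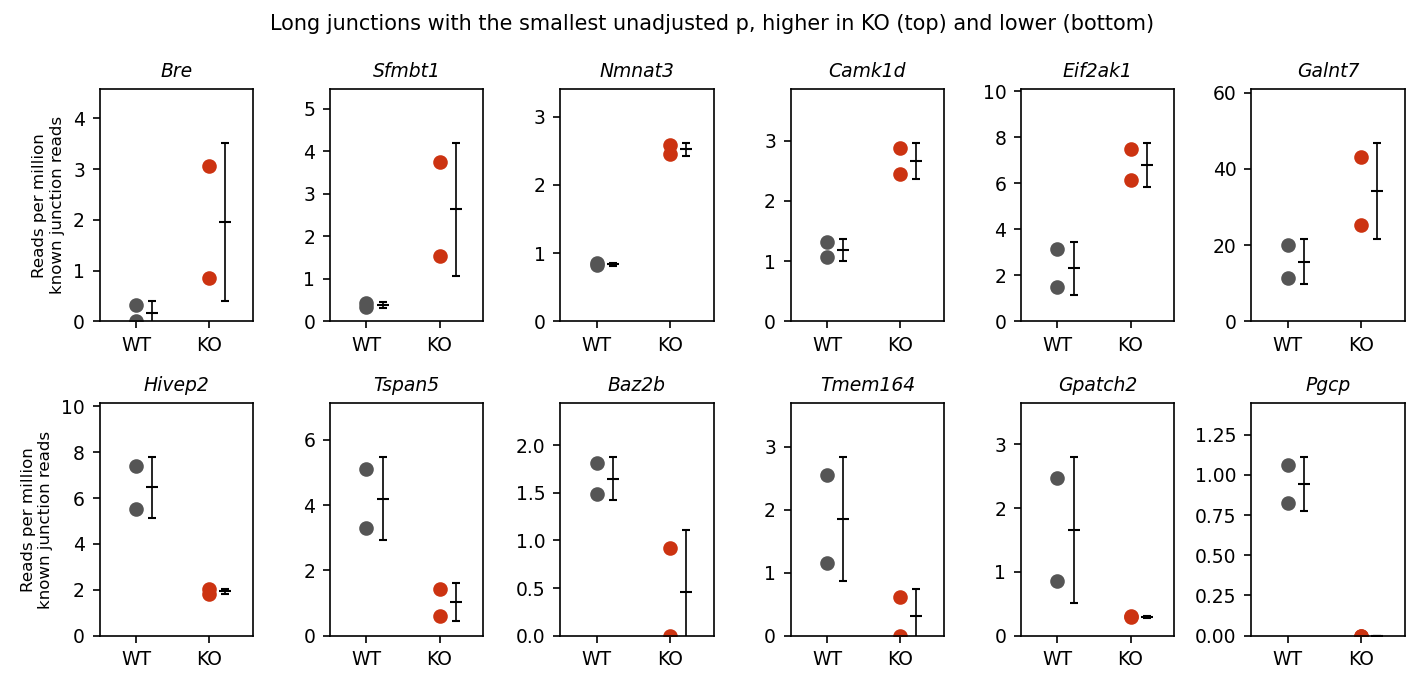
Points give the RPM of each library (reads per 1000000 known-junction reads, labelled in full on the y axis) for the 6 long junctions with the smallest unadjusted p that were higher in KO (top row) and lower (bottom row), and the bar beside them the mean and SD of the 2 libraries of a group; the y axes start at 0 and differ in scale. The KO points of Eif2ak1 and Nmnat3 lie together above the wild-type points, those of Hivep2 lie together below, and Bre and Sfmbt1 each have a high KO library.

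A long junction can also compete with another for an exon end. Of the 684, 40 shared an end with another known junction with at least 10 reads, 19 the exon before and 32 the exon after. In 10 genes the long junction passed over 1 exon whose own junctions were both known and read, and the share of skipping was its reads over those plus the mean of the 2 inclusion junctions. The groups did not overlap in 5 of the 10, with skipping lower in KO in 3 and higher in 2. Over all 352 exons with 3 such known junctions, 42.3% did not overlap (27.3% lower and 15.1% higher in KO).

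The deepest was Raly, for an RNA-binding protein of the hnRNP family, where the 65721 nt junction skipped an 83 nt exon. Raly skipping was 23.8% and 27.0% in wild type and 22.3% and 21.2% in KO (25.4% ± 2.26 against 21.7% ± 0.722, SD, n = 2 each), and the skipping junction was not called (log2 -0.30, SE 0.27, unadjusted p = 0.307). In Bcl11b the 72051 nt junction skips a 216 nt exon and was the main form in every library. Bcl11b skipping was 76.3% and 81.4% in wild type and 72.1% and 75.3% in KO. In Pag1, which anchors the kinase Csk at the membrane, a 59 nt exon was skipped in 20.0% and 31.2% against 17.1% and 16.1%. Skipping in Raly, Bcl11b and Pag1 was lower in both KOs, by 3.67, 5.18 and 9.02 percentage points as means.

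The 2 that were higher were Tmem164 and Celf1. In Tmem164 a 659 nt exon was skipped in 74.5% and 84.3% in wild type and 94.1% and 95.8% in KO (a wild-type mean of 79.4% ± 6.93, SD, n = 2, and 15.6 percentage points more in KO). Tmem164 skipping reads were 38, 43, 24 and 23, while the inclusion junctions carried 14, 9, 1 and 2 and 12, 7, 2 and 0. The 2 inclusion junctions had log2 changes of -2.23 (SE 0.92, unadjusted p = 0.0187) and -2.50 (SE 1.04, unadjusted p = 0.0201), and the skipping junction -0.11 (SE 0.42). Tmem164 lies on the X chromosome, and the part of the Xist and Ddx3y difference of KO replicate 1 in these values was not tested. Without KO replicate 2 the second inclusion junction stood at -1.51 (unadjusted p = 0.199), and without KO replicate 1 its only KO library is at 0. Celf1, for an RNA-binding splicing regulator, skipped a 152 nt exon in 59.8% and 56.1% against 63.9% and 74.3%, with 4 to 28 reads per inclusion junction.

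The other 5 overlapped. Skipping was 3.61% ± 1.26 in wild type and 3.82% ± 2.70 in KO for a 96 nt exon of Znrf1, and 66.1% ± 5.74 and 67.1% ± 3.50 for a 90 nt exon of Ssbp2 (SD, n = 2 each). Runx1 (192 nt), Btrc (108 nt) and Gng12 (53 nt) rested on 139, 67 and 62 reads in all, and their wild-type values alone differed by over 20 percentage points.

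**Figure D5:**
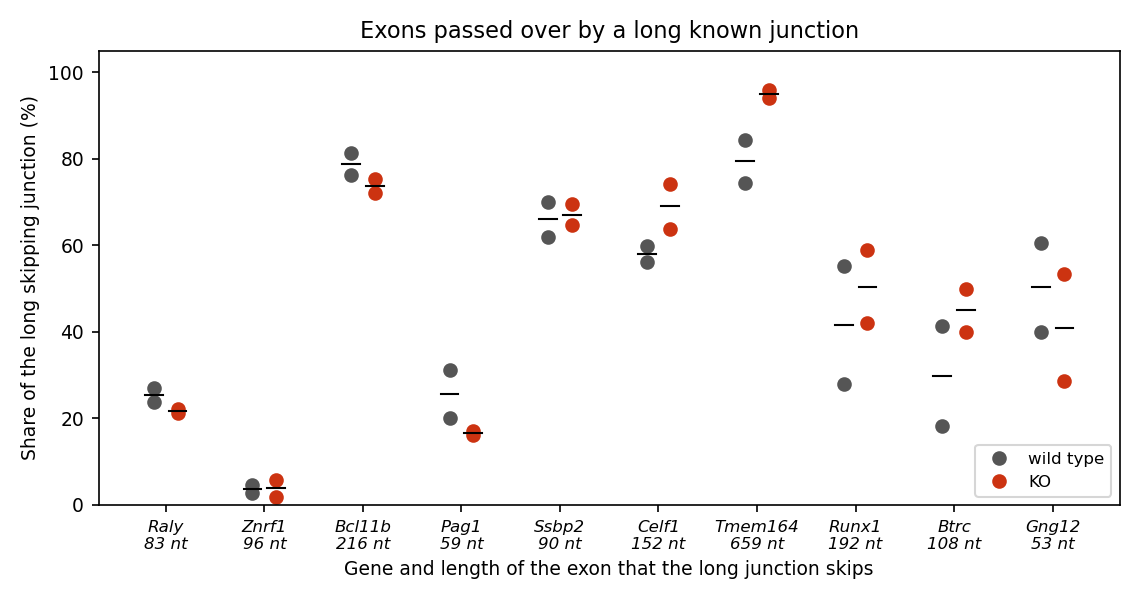
The y axis gives the share of the long skipping junction in percent for 10 exons, named by gene and exon length on the x axis; points are libraries (grey wild type, red KO) and short lines the group means. Bcl11b and Tmem164 were skipped in most reads of every library, Znrf1 in few, and the groups separate in Raly, Bcl11b, Pag1, Celf1 and Tmem164.

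In 2 further genes named after their values were seen, a long junction from a farther exon shared its exon after with a shorter one. For Sept9 (current symbol Septin9), a cytoskeletal GTPase, the junction chr11:117152350-117212743 had 10, 10, 2 and 3 reads beside 26, 13, 15 and 16 on the shorter. The share of the long Sept9 junction was thus 27.8% and 43.5% in wild type and 11.8% and 15.8% in KO. For Sertad2, a transcriptional coregulator, chr11:20443763-20547805 had 3, 12, 4 and 1 beside 10, 20, 30 and 26, or 23.1%, 37.5%, 11.8% and 3.70%. The groups do not overlap in Sept9 or Sertad2, but both were named with these values seen, so this is no test of them. Other long junctions that shared their exon after separated the other way. In Epc1, Tsc22d1, Mark2 and Ppp2r5c the share of the long junction was higher in both KOs than in both wild types. How often such pairs separate was not counted, so no common direction is drawn from Sept9 and Sertad2. The long junctions of Sept9 and Sertad2 were not called. The shorter junctions had log2 changes in relative usage of -0.10 (SE 0.51) in Sept9 and 0.44 (SE 0.49) in Sertad2. The exact 95% intervals of single Sept9 libraries overlap, for example from 14.2% to 45.2% in wild-type replicate 1 and from 1.46% to 36.4% in KO replicate 1. In Sertad2 the interval of wild-type replicate 1, from 5.04% to 53.8%, overlaps those of both KOs. Those of wild-type replicate 2 (21.1% to 56.3%) and KO replicate 2 (0.0937% to 19.0%) do not overlap. The intervals of both genes cover counting error only.

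Last, the 508 genes were compared as wholes. Of the 506 tested, none passed an adjusted p of 0.05 in edgeR, where 0.00728% of all 13733 tested genes (1) did, and DESeq2 called 5, where it called 0.931% of the 12135 genes with an adjusted p (113). At an unadjusted p under 0.05, 32 were higher and 21 lower in KO, against backgrounds of 6.29% and 3.61%, and the median log2 change was -0.02 beside 0.0080 for all. Atxn1, for a polyglutamine protein of transcriptional repression, was at 21.03 and 21.07 CPM in wild type and 39.0 and 38.2 in KO (log2 0.87, SE 0.13, adjusted p = 0.240 in edgeR). Zeb2, for a zinc finger repressor, was at 10.5 and 10.3 against 15.3 and 22.1 CPM, and 9030617O03Rik was at 11.0 and 11.4 against 24.7 and 42.6 CPM. Both KOs were above both wild types in Atxn1, Zeb2 and 9030617O03Rik, and in Scfd2 as well (log2 0.65, SE 0.15).

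Of those lower, Mfhas1 was at 123 and 126 CPM in wild type and 85.1 and 63.3 in KO (log2 -0.75, SE 0.16, adjusted p = 0.377 in edgeR). Zbtb16, for the PLZF factor of innate-like T cells, was at 7.40 and 9.13 against 4.67 and 2.68 CPM, Chn2 at 11.5 and 12.4 against 7.89 and 6.69 CPM, and Plcl1 at 36.9 and 43.6 against 28.1 and 25.9 CPM. In Plcl1, a phospholipase C-like protein, the long first junction across 289115 nt carried 10, 19, 14 and 13 reads, with a change in relative usage of the opposite sign to the gene's (log2 1.31, SE 0.64, unadjusted p = 0.0461), where the gene had a log2 change of -0.58 (SE 0.14). Neither Plcl1 value passed its test after adjustment.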

How the data were processed

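For each library the authors deposited raw counts of reads per exon-exon junction, marked known or putative, and raw counts per RefSeq transcript. The transcript tables also hold the authors' ratio of reads to length and RPKM values, which were used in no test. Reads were counted by the authors from primary alignments at a minimum mapping quality (10), per the file headers. The build is mm9 per the submitters' processing notes; the sources used here give neither the aligner nor the handling of strand.

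Junctions were joined by position, strand, status and gene. Those with a total of 10 or more reads were fitted with edgeR 4.0.16 in R 4.3.3 (robust quasi-likelihood, TMM, diffSpliceDGE, natural-log coefficients divided by the log of 2), and genes by the transcript with most reads (filterByExpr, TMM). p-values were adjusted by Benjamini-Hochberg over all features tested, with a threshold of 0.05. limma 3.58.1, DESeq2 1.42.0, other filters, scalings, comparators and lengths, and leaving out each library, were the alternatives. The code was tested on simulated data. Values are mean ± SD over 2 mice. The labels number the mice, and the p-values of genes measure the spread between them. For junctions that spread is pooled over the junctions of a gene, as if these were independent. The p-values of junctions therefore do not measure the spread between mice alone.

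The members, lists and rules were chosen with earlier results of these data known. Named were members past the threshold, the 6 with the smallest p in each direction, the 8 with most reads, the 5 longest, those beside the thresholds, the 4 best read per list or sharing an end, the 6 lowest and 6 highest in level (in genes with at least 4 other junctions and a median of at least 40 reads), and 4 host genes in each direction.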

Additional observations from a re-analysis of the deposited data

How the results depend on the processing

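No long junction was called in edgeR or under any alternative run: known junctions alone, DESeq2's size factors, at least 30 reads, no filter, limma-voom, a length of 30000 or 100000 nt, the replicate block, or without any 1 library. At an unadjusted p under 0.05 the numbers ran from 6 of 124 tested (100000 nt) to 43 of 1546 (30000 nt), and from 9 to 24 under the other settings.

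Calls among the genes that hold a long junction depended on the settings, as did those over all genes: 0 (of 1 over all) in the edgeR fit, 5 (of 113) with DESeq2 (9030617O03Rik, Atxn1, Mfhas1, Zbtb16 and Zeb2), 3 (of 62) with no filter, and 0 with DESeq2's size factors or with reads summed over transcripts. With 1 library left out the count ran from 0 to 25: 25 (of 427 over all) without KO replicate 1, and 0 (of 2 and 43) without either wild type. The count without KO replicate 2 lay within that range. The lone KO library is then assumed to vary like the wild types.

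With the replicate number as a block, 0 long junctions and 3 genes (9030617O03Rik, Atxn1 and Mfhas1) were called, while the calls over all junctions went from 4 to 10 and over all genes from 1 to 121. Same-numbered libraries deviated together with a correlation of 0.059 over junctions and 0.29 over genes, and nothing in the labels ties them, so the numbers are not taken as pairs.

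The median level of 89.2% was 72.2% against the mean of the gene's other junctions, 117% with unread known junctions included, 84.6% against the neighbouring junctions and 121% for members with at least 30 reads. It stayed at 87.8% to 92.0% with other lengths or without shared ends, and at 89.2% to 90.9% without any 1 library. Of the checks on single named genes and junctions, 169 stayed on their side of the threshold, 16 came to pass it (all of them expression of host genes) and 0 reversed. Depth limits single long junctions: 199 of the 684 had at least 100 reads.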

Other observations

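Long junctions that the tables mark as putative, joining exon ends in combinations outside the known set, were scarcer among those read. Of 392471 listed with a span of 50000 nt or more, 164 had at least 10 reads, with a median of 21, and 160 of these joined ends that both belong to known junctions. The best read was in Drosha, the nuclease of microRNA maturation, with 4329 and 2062 reads in wild type and 2483 and 1277 in KO, followed by Arhgap15 with 169, 168, 119 and 126. Of 157 tested, none was called in edgeR, and 9 had an unadjusted p under 0.05 (8 higher and 1 lower in KO), against a background of 2.55% of all tested junctions (1.31% higher and 1.24% lower). Several of the 8 rest on 1 library, such as a Dst junction with 0, 0, 73 and 0 reads and a Dnm3 junction with 0, 1, 0 and 11. The lower one was in Camk4, for a calcium/calmodulin-dependent kinase, with 17, 25, 1 and 2 reads (log2 -2.74, unadjusted p = 0.0014). Prkcb, for a protein kinase C, had 1, 1, 6 and 12 reads on a junction of 166671 nt (log2 3.81, unadjusted p = 0.00016).

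A share of at least 90% of the reads in 1 library was found for 13 of the 164 putative long junctions and for 0 of the 684 known ones. Ttn had 0, 0, 0 and 548 reads, Epb4.1l3 had 0, 0, 237 and 0, a Dst junction had 0, 0, 227 and 0, and Trp63 had 156, 1, 1 and 0. These were chosen after their values were seen, and each rests on a single mouse.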
